A study of Mus musculus with 4 samples.

Results

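Cytosolic sulfotransferase genes were followed in livers of mice that lack Baf60a in the liver (Baf60a LKO) and of wild-type (WT) mice. The 7 genes were Sult5a1, Sult1b1, Sult1a1, Sult1c2, Sult1d1, Sult1e1 and Sult2b1, taken as a list of symbols, with every probe set that the platform annotation gives to them. They had 8 probe sets among 45101 on the array, 2 for Sult1d1 and 1 for each of the others, and they are 7 of 18193 genes with a value. The genes were chosen by symbol with the measured difference between the genotypes, Baf60a LKO minus WT, already known, so that difference is described for these genes and not tested.

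Both groups were C57BL/6 mice on a high-fat diet that started at 6 weeks of age and lasted 10 weeks, and their livers were taken after overnight fasting. Total RNA from 2 pools of Baf60a LKO livers and 2 pools of WT livers was hybridised to 4 Affymetrix Mouse Genome 430 2.0 arrays, 1 pool per array. The genotype label names a liver-specific knockout. The sources used here do not give the promoter that drives the deletion, the sex of the mice or the number of livers in a pool. Replicates are pools, so the spread between arrays is that between pools. BAF60a, encoded by Smarcd1, is a subunit of SWI/SNF chromatin remodelling complexes. The comparison asks which liver transcripts differ when it is missing.

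Cytosolic sulfotransferases move a sulfonate group from the donor 3'-phosphoadenosine 5'-phosphosulfate (PAPS) to small molecules, which makes them more soluble in water and often ends their hormonal activity. Enzymes of the SULT1 family act mainly on phenols, among them catecholamines, thyroid hormones and estrogens, and those of the SULT2 family on hydroxysteroids. Liver is a main site of these reactions, and several of the genes are known targets of nuclear receptors such as CAR.

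The promoters of 4 genes are shown because these genes had the lowest Baf60a LKO values relative to WT. The sequences are the 250 bases before the RefSeq transcript start on GRCm38.p6, written 5' to 3' on the strand of the gene, and all 4 genes lie on the minus strand. The windows are chr8:123158281-123158530 for Sult5a1, chr5:87538196-87538445 for Sult1b1, chr7:126676419-126676668 for Sult1a1 and chr5:87569007-87569256 for Sult1d1. The windows of Sult5a1 and Sult1a1 lie inside these genes, which extend to 123158914 and 126690443. They precede a transcript start within the gene and not its outermost 5' end. Capitals mark exact matches to the motifs named after them.
Sult5a1: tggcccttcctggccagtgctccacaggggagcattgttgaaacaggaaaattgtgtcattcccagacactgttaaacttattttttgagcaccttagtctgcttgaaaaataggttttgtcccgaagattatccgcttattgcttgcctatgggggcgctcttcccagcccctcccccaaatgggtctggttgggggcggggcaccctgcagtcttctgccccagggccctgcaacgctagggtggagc
Sult1b1: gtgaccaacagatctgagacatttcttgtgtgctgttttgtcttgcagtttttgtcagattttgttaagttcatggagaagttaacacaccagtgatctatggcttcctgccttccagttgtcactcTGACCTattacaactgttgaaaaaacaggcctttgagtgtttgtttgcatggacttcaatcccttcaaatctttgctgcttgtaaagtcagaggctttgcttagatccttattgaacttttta
Sult1a1: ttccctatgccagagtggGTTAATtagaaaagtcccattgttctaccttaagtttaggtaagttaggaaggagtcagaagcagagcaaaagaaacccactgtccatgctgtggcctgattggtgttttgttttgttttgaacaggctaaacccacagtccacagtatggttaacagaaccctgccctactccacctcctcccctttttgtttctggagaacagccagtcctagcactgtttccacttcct
Sult1d1: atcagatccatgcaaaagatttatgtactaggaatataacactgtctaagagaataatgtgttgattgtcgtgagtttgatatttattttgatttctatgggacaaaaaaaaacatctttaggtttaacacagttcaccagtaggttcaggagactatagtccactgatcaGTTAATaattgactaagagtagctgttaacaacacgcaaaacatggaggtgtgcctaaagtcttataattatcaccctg

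In all, 9 motifs were searched on either strand. They were the nuclear receptor element AGGTCA, its direct repeats spaced by 1 and by 4 bases and its inverted repeat spaced by 1 base, the HNF4 site CAAAGTCCA, the HNF1 element GTTAAT, the FOXA site TGTTTAC, the TATA box TATAAA and the E-box CACGTG. The repeats contain the AGGTCA element, so a repeat would count under both, and no matches overlapped in these windows. Sult1b1 held AGGTCA on the opposite strand, starting 123 bases before the transcript start, and Sult1e1 held it likewise at 113 bases, and this element occurs in 14.0% of the 32851 windows in the table. Sult1a1 and Sult1d1 each held GTTAAT, at 232 and 79 bases before the start, which occurs in 6.43% of windows. The Sult5a1 window held none of the 9 motifs, nor did those of Sult1c2 and Sult2b1 or the second window of Sult1b1. The base composition also differed among them, with a GC content of 54.4% before Sult5a1 and 34.0% before Sult1d1, where the median window has 52.4%. A match is a string of letters in this window and not evidence of binding.

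In position, Sult1b1, Sult1d1 and Sult1e1 lie next to each other on chromosome 5, between 87513327 and 87591611 on GRCm38.p6. Sult1a1 and Sult2b1 lie on chromosome 7, Sult5a1 on chromosome 8 and Sult1c2 on chromosome 17.

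Before the members, the arrays themselves were examined. The array medians lay between 4.19 and 4.27 on the log2 scale, and the arrays correlated at 0.987 to 0.996 over probe sets. The difference between the WT arrays had a standard deviation of 0.33 and that between the Baf60a LKO arrays 0.21. The targeted gene Smarcd1 read 5.34 and 5.30 in Baf60a LKO against 5.62 and 5.88 in WT, and whether its probe set lies in the deleted part is not known, so it does not check the genotype. As a gauge of background, the 95th percentile of 41 control probe sets for bacterial transcripts was 3.02 and 3.12 on the Baf60a LKO arrays and 3.39 and 3.42 on the WT arrays. A probe set at or under it on both arrays of a group is called near background there. The 8 measured hepatocyte markers, such as Alb, read 12.6 to 14.2 on every array, and none was called different. The Y-linked genes Eif2s3y, Kdm5d and Uty read 4.23 to 8.22 and Xist 3.29 to 3.74 over the 4 arrays.

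Of the 7 genes, 5 stood above background, and each of these was lower in Baf60a LKO livers, Sult5a1 by the most, followed by Sult1b1, Sult1a1, Sult1d1 and Sult1c2. Sult1e1 and Sult2b1 were near background in both groups. Differences are Baf60a LKO minus WT on the log2 scale, with the standard error of a limma fit over all genes. In tissue RNA, fewer cells of a type and less RNA per cell cannot be told apart.

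**Figure D1:**
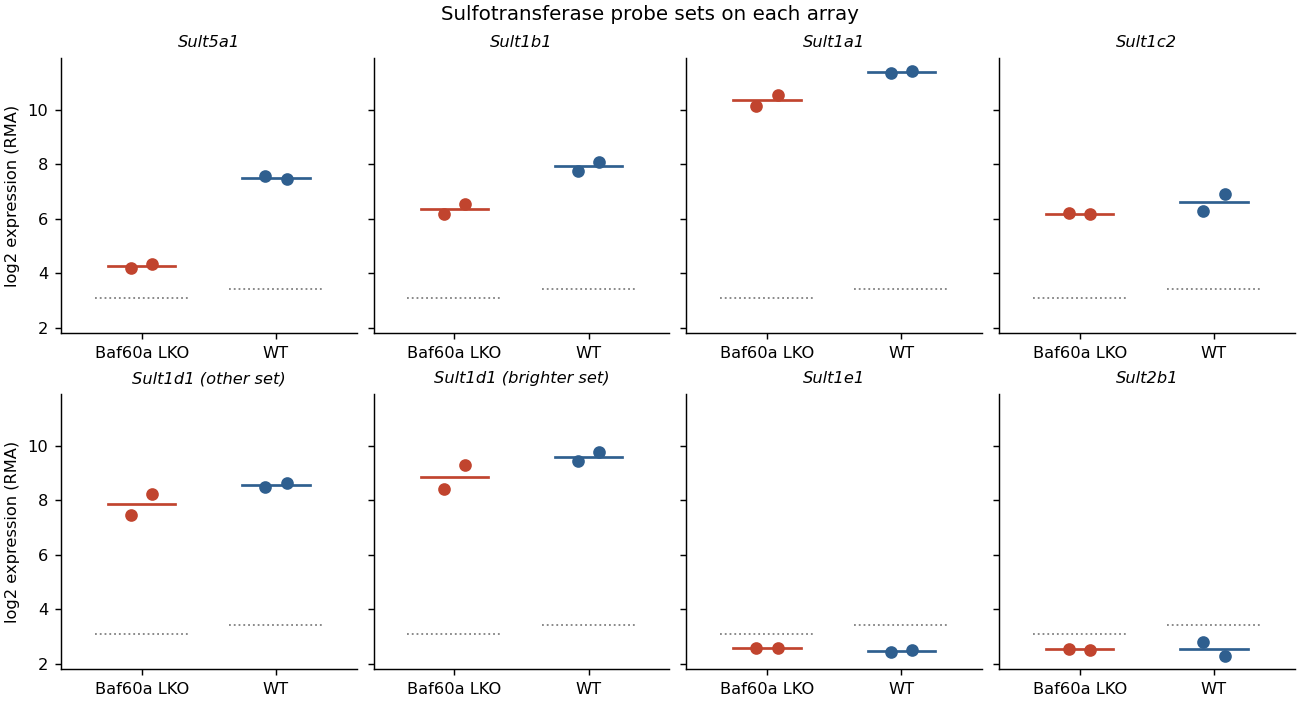
Log2 expression of the 8 sulfotransferase probe sets on each array, Baf60a LKO (red) left of WT (blue). Points are arrays, bars are means of 2 arrays, and dotted lines are the mean background gauge of the group's arrays. Sult5a1 shows the widest gap between the genotypes, Sult1d1 the widest spread between Baf60a LKO arrays, and Sult1e1 and Sult2b1 lie under the gauge.

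Sult5a1, a cytosolic sulfotransferase whose substrates are little known, read 4.19 and 4.34 in Baf60a LKO livers, against 7.56 and 7.47 in WT livers. The groups were far apart, with 3.13 log2 units between the highest Baf60a LKO array and the lowest WT array, while arrays of the same group differed by 0.15 in Baf60a LKO and by 0.10 in WT. The difference was -3.25 ± 0.12, so that the Baf60a LKO signal was 10.5% of the WT signal, or 9.50-fold lower. Its Baf60a LKO mean was 1.19 above the gauge, and RMA compresses differences at low levels. Among the 18193 genes, Sult5a1 had the 13th lowest difference.

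Sult1b1, an enzyme that sulfates thyroid hormones and phenols, read 6.16 and 6.55 in Baf60a LKO against 7.76 and 8.08 in WT. Its arrays did not overlap between the genotypes, and the gap of 1.21 between them exceeded the spread within either group. The difference was -1.57 ± 0.19, a signal 2.96-fold lower.

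Sult1a1, the main phenol sulfotransferase of liver, read 10.1 and 10.6 in Baf60a LKO livers, against 11.4 on each of the WT arrays. The WT arrays were within 0.09 of each other and the Baf60a LKO arrays within 0.43, with 0.79 between the groups. The difference was -1.05 ± 0.17, a signal of 48.2% of WT. Sult5a1, Sult1b1 and Sult1a1 are the 3 members at least 1 log2 unit lower, and 0.462% of all genes are lower by as much.

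Sult1d1, which in mice sulfates catecholamines such as dopamine, was read by 2 probe sets. The brighter one stood at 8.40 and 9.29 in Baf60a LKO and at 9.43 and 9.78 in WT. The other stood at 7.48 and 8.24 in Baf60a LKO and at 8.50 and 8.65 in WT. On each of them Baf60a LKO replicate 1 was well below the other 3 arrays, and Baf60a LKO replicate 2 was close to WT, by 0.14 and 0.26 under the lower WT array. The differences were -0.76 ± 0.31 and -0.72 ± 0.26, so the probe sets gave much the same value. For the brighter probe set, leaving out Baf60a LKO replicate 1 gave -0.31 and leaving out Baf60a LKO replicate 2 gave -1.20, so the size rests on replicate 1.

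Sult1c2, another SULT1 enzyme, read 6.20 and 6.16 in Baf60a LKO against 6.30 and 6.92 in WT. The Baf60a LKO arrays lay only 0.10 below the lower WT array, and the WT arrays differed by 0.62. The difference of -0.43 ± 0.22 became -0.12 without WT replicate 2 and -0.74 without WT replicate 1, so 1 WT pool sets its size.

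Sult1e1, the estrogen sulfotransferase, read 2.59 and 2.56 in Baf60a LKO and 2.44 and 2.49 in WT. Sult2b1, which sulfates cholesterol and pregnenolone, read 2.55 and 2.50 in Baf60a LKO and 2.79 and 2.26 in WT. All these values lie under the gauge of their arrays, so no fold is given for either gene, and the order of the Sult1e1 arrays carries no level.

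Counted together, 6 of the 7 genes had arrays that did not overlap between the genotypes, 5 of them lower and Sult1e1 higher, where 42.4% of all genes did not overlap, 19.6% with lower and 22.8% with higher Baf60a LKO values. Of the 7, limma with Benjamini-Hochberg adjustment over all genes called 1, Sult5a1, where it called 0.484% of all genes (88 of 18193, 45 lower and 43 higher). The count of members called was 2 under 5 of the 12 alternatives, 3 with a trended and robust eBayes and 0 without WT replicate 1 or without WT replicate 2. These counts come from the contrast that guided the choice of the genes and support nothing further. The median of the 7 differences was -0.76 and their mean -0.99, and the median over all genes was 0.

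**Figure D2:**
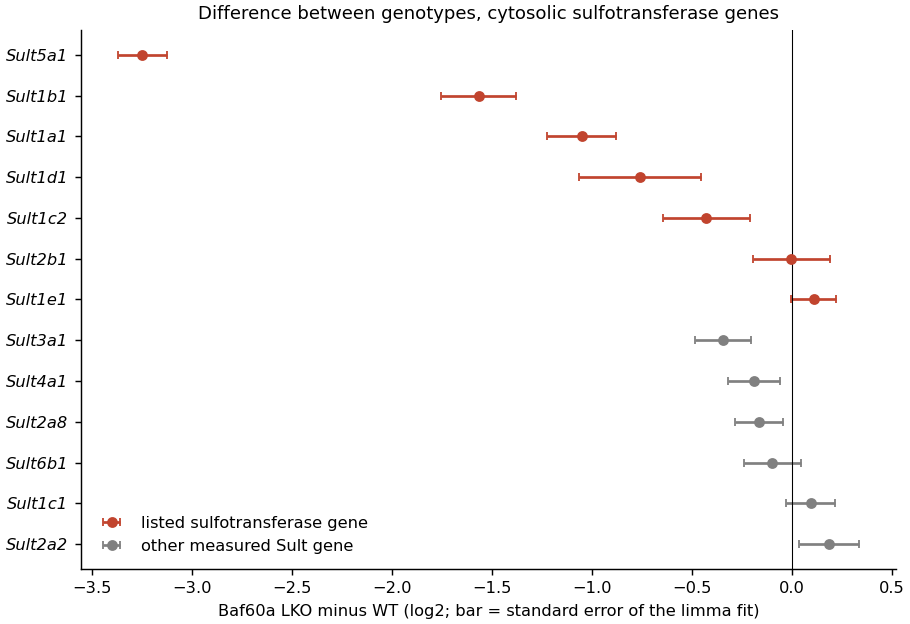
Difference between Baf60a LKO and WT on the log2 scale for the 7 listed genes (red) and the 6 other measured Sult genes (grey), with bars for the standard error of the limma fit. The listed genes run from -3.25 for Sult5a1 to 0.11 for Sult1e1, and the others from -0.34 for Sult3a1 to 0.19 for Sult2a2.

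The other cytosolic sulfotransferases had no called difference. Of 14 such genes listed, 8 are not analysed here and 6 had a value, of which 5 were near background on all arrays. The exception was Sult2a8, of the hydroxysteroid family, which read 12.3 and 12.4 in Baf60a LKO against 12.4 and 12.6 in WT. Its groups did not overlap, but the difference was small, at -0.16 ± 0.12 (limma, adjusted p = 0.662). Sult3a1 at -0.34 ± 0.14 and Sult2a2 at 0.19 ± 0.15 were the outermost of the rest, both with signal under the gauge. None of the 6 had an unadjusted p under 0.05, where 10.2% of all genes (1853 of 18193) had one. The median of the 6 was -0.13, and -0.02 without WT replicate 1 and -0.08 after cyclic loess.

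The supply of the sulfonate donor was read through 11 genes, none called in either direction by limma, with 3 at an unadjusted p under 0.05 against 10.2% of all genes. Papss2, a PAPS synthase abundant in liver, read 10.1 and 10.6 in Baf60a LKO against 11.1 and 11.2 in WT. Its groups did not overlap, and the difference was -0.83 ± 0.19 (limma, adjusted p = 0.238). Papss1, the other PAPS synthase, chosen after its values were seen, differed by 0.09 ± 0.17 with overlapping arrays. The sulfate transporter gene Slc26a1 was at 0.51 ± 0.14 and Slc35b3, which encodes a Golgi PAPS transporter, at 0.44 ± 0.14, while Slc13a4, a sodium-sulfate cotransporter gene, was at -0.32 ± 0.17. The list held 8 genes with a positive and 3 with a negative difference, and its median of 0.09 was 0.25 without WT replicate 2 and turned to -0.11 without WT replicate 1 and to -0.0017 after quantile normalization.

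**Figure D3:**
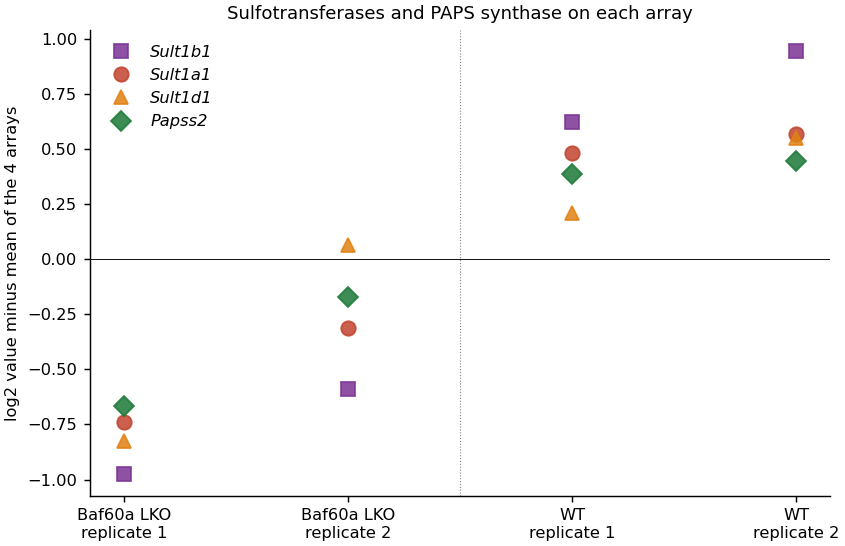
Log2 values of Sult1b1, Sult1a1, Sult1d1 and Papss2 on the 4 arrays, each minus its own mean over the arrays, with Baf60a LKO arrays left of WT arrays. All 4 genes are lowest on Baf60a LKO replicate 1, from -0.98 for Sult1b1 to -0.66 for Papss2, and on Baf60a LKO replicate 2 Sult1d1 lies at 0.06.

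The profiles of Papss2 and the sulfotransferases over the arrays were also compared. As a measure of likeness, the root mean square distance between log2 values centred on their 4-array means was 0.11 between Papss2 and Sult1a1, 0.18 between Papss2 and Sult1d1, 0.34 between Papss2 and Sult1c2, 0.38 between Papss2 and Sult1b1 and 1.21 between Papss2 and Sult5a1. Among the members, Sult1a1 was closest to Sult1d1 at 0.24 and to Sult1b1 at 0.27. Baf60a LKO replicate 1 was below replicate 2 for Sult5a1, Sult1b1, Sult1a1, Sult1d1 and Papss2, and slightly above it for Sult1c2, Sult1e1 and Sult2b1. The comparison with Papss2 was chosen after its values were seen, and a small distance over 4 arrays says mainly that the differences between the genotypes were close in size, as they were for Papss2 (-0.83), Sult1a1 (-1.05) and Sult1d1 (-0.76).

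By the same measure over the 4 arrays, the genes closest to Sult5a1 were Mup3, Slco1a4 and Cyp2c54. Mup3, a major urinary protein gene, lay at a distance of 0.15 and read 9.97 and 10.5 in Baf60a LKO against 13.5 and 13.4 in WT. Slco1a4, an organic anion transporter gene, lay at 0.26 and the cytochrome P450 gene Cyp2c54 also at 0.26. Mup3 and Cyp2c54 have near-identical relatives that can share probes, so their values are uncertain. Here too the sizes of the differences were close, -3.22 for Mup3, -3.75 for Slco1a4 and -3.68 for Cyp2c54 beside -3.25 for Sult5a1.

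Among 21 measured transcription factors known to act on sulfotransferase genes, Nr1i3, which encodes CAR, fell and 20 were not called. An unadjusted p under 0.05 was found for 4, Nr1i3 among them and all lower in Baf60a LKO, against 10.2% of all genes. Nr1i3 read 6.33 and 6.58 in Baf60a LKO against 11.2 and 11.3 in WT, a difference of -4.77 ± 0.14 (limma, adjusted p = 0.000591). Nr1i2, which encodes the related receptor PXR, differed by -0.11 ± 0.12, Hnf4a by -0.19 ± 0.11 and Esr1 by 0.21 ± 0.21, none of them called. Thrb, a thyroid hormone receptor gene, was at -0.46 ± 0.13, Nfe2l2, the gene of NRF2, at 0.47 ± 0.19 and Foxa2 at 0.25 ± 0.15, also uncalled. Leaving out an array gave differences of -4.90 to -4.65 for Nr1i3, and the call was lost without WT replicate 1 (-4.80) and without WT replicate 2 (-4.75), where a single WT pool remains. The part of Nr1i3 in the sulfotransferase differences was not tested.

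**Figure D4:**
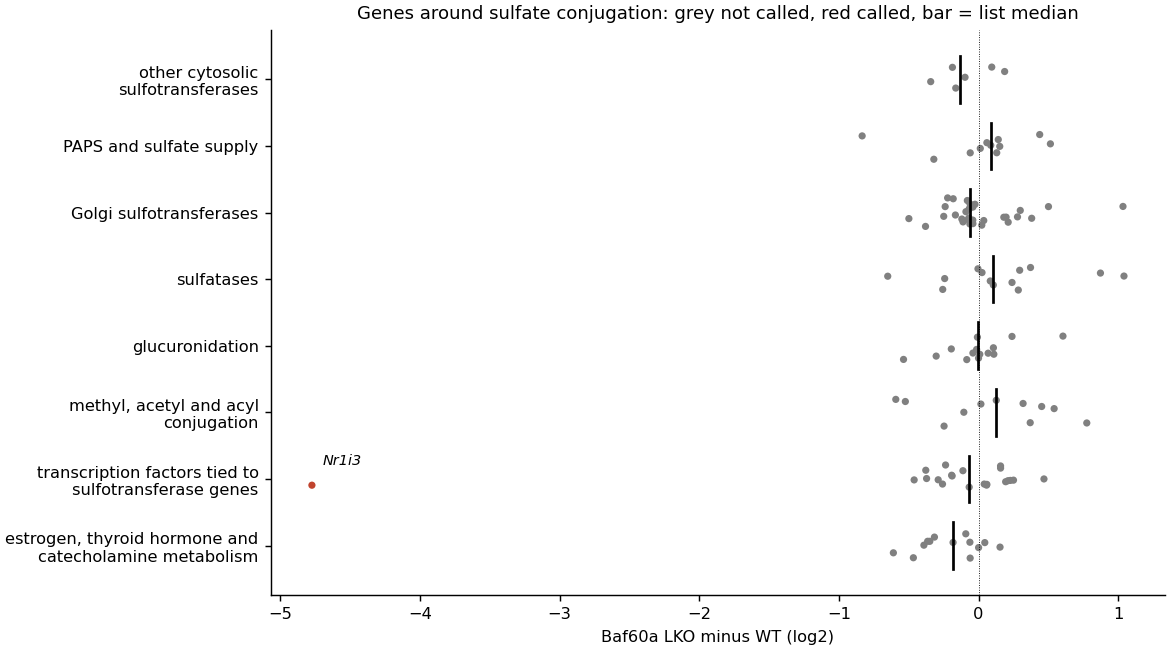
Difference between Baf60a LKO and WT on the log2 scale for every measured gene of 8 lists around sulfate conjugation, with grey points not called, red points called and black bars at the list medians. Nr1i3 is the called gene, at -4.77, and the list medians lie between -0.18 and 0.13.

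Sulfotransferases of the Golgi, which act on carbohydrates, lipids and protein tyrosines, were measured through 30 genes, and none was called by limma, with 4 at an unadjusted p under 0.05 against 10.2% of all genes. Gal3st1, which makes sulfatide, read 6.04 and 6.38 in Baf60a LKO against 5.02 and 5.33 in WT, without overlap, at 1.03 ± 0.18 (limma, adjusted p = 0.138). Hs2st1, a heparan sulfate sulfotransferase gene, was at 0.50 ± 0.15, Chst10 at -0.50 ± 0.20 and Chst1 at -0.38 ± 0.12. Of these, Chst10 was near background in Baf60a LKO, and its WT replicate 2 value also lay under the gauge. The list median of -0.06 turned to 0.21 over the brighter 50% of genes, where that of all genes was 0.08, and to 0.0060 without Baf60a LKO replicate 2.

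Of 13 sulfatases and their activators, which remove sulfate groups, none was called by limma, with 4 at an unadjusted p under 0.05 against 10.2% of all genes. The lysosomal sulfatase gene Arsg read 7.24 and 7.33 in Baf60a LKO against 6.44 and 6.05 in WT (1.04 ± 0.16, limma, adjusted p = 0.115), and Galns, a lysosomal sulfatase gene for keratan and chondroitin sulfate, was at 0.87 ± 0.14. Arsg was called under 4 of the 12 alternatives, among them at 1.32 with its probe sets averaged (limma, adjusted p = 0.00848). Sulf2, an extracellular sulfatase gene, was at -0.65 ± 0.18 and Arsb at -0.26 ± 0.13. The median of the list was 0.11. It was 0.05 without WT replicate 1, 0.19 without WT replicate 2, 0.22 without Baf60a LKO replicate 1, 0.26 over the brighter 50% of genes and 0.04 with averaged probe sets.

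Other conjugation reactions were read through glucuronidation, with 14 genes, and through methyl, acetyl and acyl transfer, with 11, and none of either list was called by limma. Of 25 glucuronidation genes listed, 11 are not analysed here, among them every listed Ugt1a gene. In glucuronidation 1 gene had an unadjusted p under 0.05, a share under the 10.2% of all genes, and the median was -0.0042, between -0.03 and 0.02 when single arrays were dropped. Ugt3a1 was at -0.54 ± 0.17 and Ugt2b37 at -0.30 ± 0.20, while Ugt2a3 was at 0.24 ± 0.13 and Ugt2b38 at 0.60 ± 0.57, with overlapping arrays. In the second list 3 genes had an unadjusted p under 0.05, against 10.2% of all genes, and the median was 0.13, or 0.07 without WT replicate 1. Nat8, a cysteine conjugate acetyltransferase gene, was at 0.77 ± 0.13 and Tpmt, the thiopurine methyltransferase gene, at 0.54 ± 0.26. Nnmt, which methylates nicotinamide, was at -0.59 ± 0.28 and Baat, which joins bile acids to amino acids, at -0.52 ± 0.14.

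Genes that handle the hormones sulfated by these enzymes numbered 13 with a value, 10 with a negative difference and none called, with 4 at an unadjusted p under 0.05 against 10.2% of all genes and a median of -0.18. Hsd17b2, which oxidises estradiol, read 9.76 on each Baf60a LKO array against 10.5 and 10.2 in WT (-0.61 ± 0.15, limma, adjusted p = 0.279). Cyp1a2, which hydroxylates estrogens, was at -0.47 ± 0.12, Maoa, which degrades catecholamines, at 0.15 ± 0.11, and Cyp1b1 at 0.04 ± 0.19. Taking all 8 lists together, 1 gene was called, where 0.484% of all genes are called.

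The genes beside the members on their chromosomes were also set out, as position played no part in choosing the list. The 3 nearest protein-coding genes with a value on each side of each member gave 30 distinct genes, and limma called 0 of them, where it called 0.484% of all genes. An unadjusted p under 0.05 was found for 2 of the 30, a smaller share than the 10.2% of all genes. Their differences ran from -0.36 for Slc5a7, which was near background in both groups, to 0.60 for Ugt2b38, with a median of -0.04. Beside Sult5a1, Cpne7 was at -0.33 ± 0.18 and Dpep1 at 0.13 ± 0.13. Beside the chromosome 5 group, Ugt2b38 was at 0.60 ± 0.57 with overlapping arrays, Ugt2a3 at 0.24 ± 0.13 and Ugt2b37 at -0.30 ± 0.20. On the other side, the casein genes Csn1s1 (-0.16 ± 0.19), Csn2 (-0.12 ± 0.13) and Csn1s2a (-0.04 ± 0.18) were near background in both groups. Sult1b1, lying between the Ugt and casein genes, was at -1.57.

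Markers of other cells were measured beside these results. The mean log2 value over 7 of 8 cholangiocyte markers was 4.38 and 4.70 in Baf60a LKO against 3.79 and 3.97 in WT. Their defining gene Krt19 read 4.05 and 4.21 in Baf60a LKO against 3.66 and 3.81 in WT, without overlap. The largest differences were those of Pkhd1 (1.34 ± 0.30), Epcam (1.17 ± 0.21) and Cldn7 (0.89 ± 0.16). Over 5 of 6 adipocyte markers the mean was 3.45 and 3.44 in Baf60a LKO against 3.94 and 3.80 in WT. Of these, Adipoq and Lep were near background on all arrays. Cidec had the largest difference, at -1.11 ± 0.26, beside -0.40 for Retn and -0.41 for Ucp1. Ucp1 was near background in Baf60a LKO and exceeded the gauge only on WT replicate 1. Over 6 kidney tubule markers, 3 of them near background on all arrays, the mean was 3.19 and 3.08 in Baf60a LKO against 3.42 and 3.25 in WT. Over 5 of 6 enterocyte markers the mean was 5.10 and 5.06 in Baf60a LKO against 5.17 and 4.88 in WT. Among them Fabp2 read 11.1 to 11.3, and Lct and Alpi were near background on all arrays. Vil1 had the largest difference, at 0.85 ± 0.15 without overlap, while the other measured enterocyte markers were at -0.19 to -0.10. The macrophage, endothelial, stellate and lymphocyte means differed by -0.14 to 0.04. The part of these cells in the sulfotransferase differences was not tested, and no marker of any list was called.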

How the data were processed

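The authors deposited 1 log2 value per probe set and array, log2 by its range. The submitters' processing notes name RMA (background correction, quantile normalization and probe summary), affy and limma, with no versions. Arrays hold no read depth, and their number limits the precision. The 64 control probe sets were left out, and 45037 of 45101 remained. The platform annotation gave 1 symbol to 34945 of the rest, several to 932, and did not list 9160, and 34741 of the symbols were updated through RefSeq (GRCm38.p6) by Entrez number. For a gene with several probe sets, the one of highest average over the 4 arrays was used. Genotypes, taken from the labels, were set against each other in limma 3.58.1 (R 4.3.3), 2-sided, with Benjamini-Hochberg adjustment over 18193 genes and a threshold of 0.05. The fit had 2 residual and 3.54 prior degrees of freedom. The second probe set of Sult1d1 takes its standard error from the same model fitted to all 45037 probe sets. The script was tested on simulated data. Detection calls were not used here.

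The members and gene lists were chosen with earlier results of these data known. Genes named besides the members are the called genes of each list, otherwise the largest differences in either direction. Named along with them are other Sult genes, Nr1i3, Nr1i2, Hnf4a, Esr1, Papss1, neighbours, cell markers and the 3 genes closest in profile to Sult5a1. Papss1, the named neighbours and cell markers such as Cidec, none of them called, were chosen after their values were seen. The profile rule also covers the largest rise among the members, which was not applied because no member was called higher. The 12 alternatives were quantile, loess and median normalization, the brighter 50% of genes, averaged probe sets, leaving out _x_at and _s_at probe sets, a replicate block, a trended and robust eBayes and leaving out each array. Promoters came from RefSeq tables, where all 7 members matched. Plots were made in Python 3.11.15 (matplotlib 3.10.9).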

Additional observations from a re-analysis of the deposited data

Results flagged for a closer look

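Among the control probe sets left out of the tests, 3 for the Cre recombinase read higher in Baf60a LKO livers than in WT livers and stood above the background gauge there. The differences were 3.41, 2.08 and 1.26 on the log2 scale, Baf60a LKO minus WT, and were not tested. The first read 5.87 and 6.22 in Baf60a LKO against 2.80 and 2.48 in WT. Another Cre probe set read 2.90 and 2.64 in Baf60a LKO against 2.21 and 2.04 in WT, a difference of 0.65 without overlap, but lay under the gauge. The 3 control probe sets were singled out because they lie outside the comparison of genes and exceed the WT arrays without overlap.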

How the results depend on the processing

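The mean difference of the 7 sulfotransferase genes, -0.99, stayed negative under the 12 alternatives, at -1.12 to -0.87 with 1 array left out, and was -1.41 over the 5 genes in the brighter 50%, since the 2 genes near background drop out there. Sult5a1 ran from -3.33 to -3.17, Sult1b1 from -1.76 to -1.37, Sult1a1 from -1.27 to -0.84, and Sult2b1, near background, from -0.26 to 0.26. The number of all genes called, 88, was 142 after cyclic loess, 154 with array medians subtracted (91 higher and 63 lower), 216 with a trended and robust eBayes, and 0 to 17 with 1 array left out (without WT replicate 1 there were 0 and without WT replicate 2 there were 3, while dropping Baf60a LKO replicate 1 left 10 and dropping Baf60a LKO replicate 2 left 17). Sult5a1 was not called without either WT array, where its difference was -3.20 (without WT replicate 1) and -3.30 (without WT replicate 2). With any 1 array left out, of either genotype, fewer degrees of freedom remain and the lone pool is assumed to vary like the other group. The cause of the lost Sult5a1 call was not tested. In the pathway lists, 1 gene called became 2 with array medians subtracted, when _x_at and _s_at probe sets were dropped and when probe sets were averaged, each time Nr1i3 and Arsg, and 5 with a trended and robust eBayes, with Cyp1a2, Glyat and Nat8 added. Leaving out 1 array gave 0 to 1. The neighbours had 0 calls throughout, in alternatives added after seeing the data.

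With the replicate number as a block, 19 genes were called, 1 of them among the pathway lists and 1 among the 7 members (2 of the 7 after each of the 3 normalizations, over the brighter 50% of genes and with averaged probe sets, and 3 with a trended and robust eBayes), and the mean difference was -0.99. The samples share only a number: across genes, deviations of same-numbered pools correlated at 0.14, over 2 pairs. The cause of the other changes was not tested. The use of 4 arrays with no detection calls limits what can be said of dim genes.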
